A study of Mus musculus with 3530 samples.

Results

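The genes described here are those of the cytosolic ribosomal proteins, taken from the count table of single neurons of the mouse medial prefrontal cortex by their symbols (Rpl or Rps followed by a number, with a short suffix where there is one, together with Rpsa, Rplp0, Rplp1 and Rplp2, and leaving out the Rps6 kinase genes and rows marked as pseudogenes by -ps). The rule uses symbols and no measured value, and it took 85 of the 23354 genes. Of these, 77 are ribosomal protein genes under their own names, 46 of the large and 31 of the small subunit. The other 8 are paralogues or copies, which are Rpl22l1, Rpl3l, Rpl6l, Rpl7l1, Rps27l, Rps3a2, Rps3a3 and Rps4l.

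Messenger RNA was measured by Smart-seq2, a plate method that amplifies whole transcripts of individually sorted cells, in 3530 cells of 20 mice that all carried TRAP2, an activity-dependent recombinase that needs tamoxifen, and Ai14, its tdTomato reporter. The conditions of the contextual fear experiment were Fear-Recall (1342 cells), Fear-Only (841 cells), Context-Only (912 cells) and Homecage (435 cells), each with 5 animals numbered by set, where Context-Only has no animal 1 and a second animal 5, here 5b. The titles name a sorting gate, pos (1806 cells) or neg (779 cells), in sets 2 to 4, mark 96 cells of Homecage animal 3 with both gates, and give none for the 849 cells of sets 1 and 5. When the mice were trained, given tamoxifen or tested is not in the labels, nor are age and sex, and papain dissociation preceded every sort. The animal is the replicate throughout. In the class, gate and subclass tests, which compare cells within animals, p-values rest on how the differences within animals vary. In the edgeR tests between conditions they rest on the spread between these animals.

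A ribosome has a large and a small subunit, in which a fixed set of proteins, nearly all present once, is bound to ribosomal RNA. The genes of these proteins are housekeeping genes, their messenger RNAs begin with a pyrimidine-rich tract that puts their translation under the control of mTORC1, and their transcripts are short and abundant. In neurons, ribosomes of the soma and of the dendrites make the proteins that lasting synaptic change requires.

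Each cell held 100002 to 6840943 reads (median 813078) and 527 to 10838 detected genes (median 6718). Cells were clustered with the ribosomal protein genes left out, which gave 2330 excitatory and 1200 inhibitory neurons in 18 clusters. The mean of the excitatory markers on the log scale of the clustering was 2.813 to 4.355 in the excitatory clusters and 0.389 to 0.797 in the inhibitory ones. A pair of clusters with 9.632% of the cells, an excitatory and an inhibitory one, stood apart by few genes per cell (medians 4168 and 2460) and are called low-gene clusters below. Animal 1 of Homecage has 1 cell and enters no comparison.

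The promoter windows of the members that stood highest in inhibitory over excitatory neurons (below) are given first, since the start of the transcript carries the element these genes are known for. RefSeq (GRCm38.p6) gave a promoter for 61 of the members and for 12830 genes of the table. Each line runs from 40 bases before to 20 bases after the annotated start, and capitals mark CTTTCC, a pyrimidine run of the kind at which these transcripts begin.
Rps27 (chr3:90213629-90213688, minus strand): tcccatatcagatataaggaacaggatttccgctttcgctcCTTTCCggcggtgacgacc
Rpl13a (chr7:45128726-45128785, minus strand): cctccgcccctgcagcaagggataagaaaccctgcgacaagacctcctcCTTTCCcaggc
Rpl18 (chr7:45718031-45718090, plus strand): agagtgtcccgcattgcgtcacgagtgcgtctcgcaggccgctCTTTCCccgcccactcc
Rpsa (chr9:120127726-120127785, plus strand): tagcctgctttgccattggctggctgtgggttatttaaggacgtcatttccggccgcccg
Rps9 (chr7:3704001-3704060, plus strand): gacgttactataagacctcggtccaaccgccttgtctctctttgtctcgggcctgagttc
Rpl7l1 (chr17:46782637-46782696, minus strand): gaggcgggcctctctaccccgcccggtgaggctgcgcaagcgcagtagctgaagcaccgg
Rpl13 (chr8:123102310-123102369, plus strand): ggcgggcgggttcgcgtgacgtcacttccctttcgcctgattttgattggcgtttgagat
Rpl22l1 (chr3:28805468-28805527, plus strand): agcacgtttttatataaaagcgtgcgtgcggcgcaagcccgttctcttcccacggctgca

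CTTTCC on the transcribed strand lay within 50 bases of the start in 18 of the 61 member promoters (29.5%) and in 680 of the 12830 promoters of all genes (5.3%). Among the members that rose in inhibitory neurons it was there in 9 of 28 (32.1%), and among the other members tested in 9 of 32 (28.1%). CGGAAG, the core that ETS-family factors are known to bind, searched on both strands from 250 bases before to 50 after the start, was in 41 of 61 member promoters (67.2%) and in 30.1% of all. It was in 14 of the 28 members that rose in inhibitory neurons (50%) and in 27 of the 32 others (84.4%). CTTTCC on both strands of the longer window was in 50.8% of member promoters and 30.4% of all. These are matches of letters, and neither motif contains the other.

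Members took a median of 1.607% of the reads of a cell, with 0.1556% in the lowest cell, 9.76% in the highest, and 1.029% and 3.799% at the 5th and 95th percentiles. A cell held a median of 13543 member reads from 82 detected members (12 to 85), and 0 cells had none. Over the 19 animals with 10 or more cells, the median share per cell was 1.621% ± 0.5315 (SD, n = 19), from 1.114% in Fear-Only 4 through a median of 1.535% to 3.148% in Context-Only 2. Context-Only 2 stood alone at the top, followed by Homecage 3 at 2.298%, Homecage 2 at 2.283% and Fear-Only 2 at 2.275%. The 190 rows marked -ps were left out of the members and held 0.009883% of all counts.

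By set, the share was 2.31% ± 0.6597 (SD, n = 4) in set 2, 1.815% ± 0.3263 (n = 4) in set 3, 1.44% ± 0.1608 (n = 2) in set 1, 1.312% ± 0.1777 (n = 5) in set 5 and 1.214% ± 0.1306 (n = 4) in set 4. Every animal of set 4 lay below every animal of sets 2 and 3, since set 4 reached 1.399% and sets 2 and 3 began at 1.535% and 1.586%. The share of counts in 1391 other genes with coding sequences under 500 bases moved the same way, at 18.74% ± 4.336 in set 2 and 12.28% ± 0.8093 in set 4. Its part in the difference was not tested, nor what the set number marks.

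**Figure D1:**
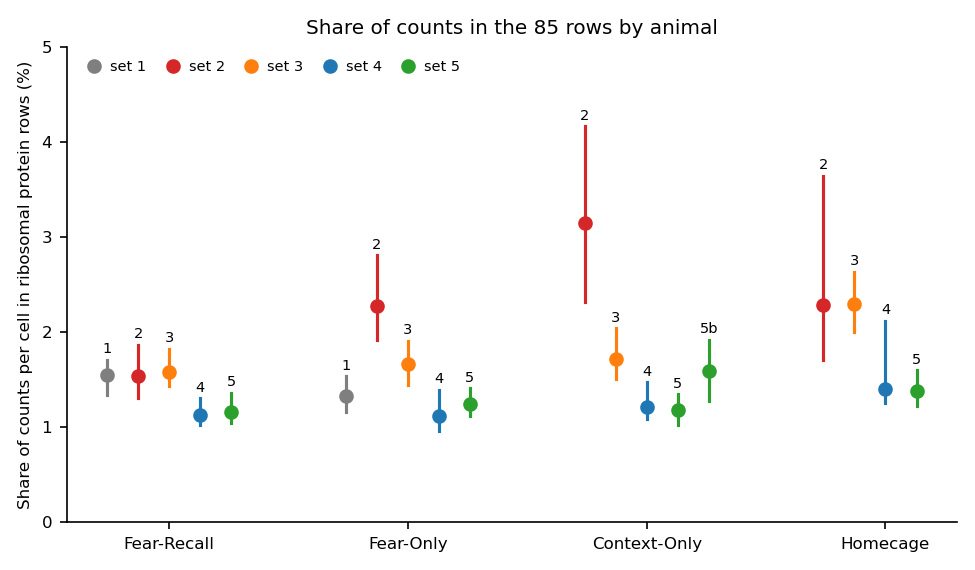
Share of a cell's reads in the 85 ribosomal protein genes (percent, vertical) for each animal, grouped by condition and coloured by set. Dots are the median over an animal's cells and bars run from the 25th to the 75th percentile. Context-Only 2 sits highest at 3.148%, and the animals of set 4 sit at 1.114% to 1.399%.

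The share fell as the number of genes detected in a cell rose. In excitatory neurons the median share was 3.206% in cells with under 4000 genes, 1.947% from 4000 to under 5000, 1.477% from 5000 to under 6000, 1.562% from 6000 to under 7000, 1.538% from 7000 to under 8000 and 1.411% at 8000 or more. In inhibitory neurons the same bins, of 63 to 732 cells over both classes, held 2.721%, 1.814%, 1.842%, 1.761%, 1.678% and 1.556%. The step was steepest below 4000 genes in both classes. Above 5000 genes the excitatory medians stayed between 1.411% and 1.562%.

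Within an animal the Spearman correlation of share with genes detected, given as a description across cells that share depth and plates, had a median of -0.45 in excitatory neurons (17 animals with 30 or more such cells, -0.8 to 0.13, below 0 in 16). In inhibitory neurons it was -0.25 (16 animals, -0.68 to 0.19, below 0 in 15). With every cell thinned to 100000 reads the medians were -0.59 and -0.33. Without the low-gene clusters they were -0.35 and -0.24. The correlation with the share of the other short genes was 0.84 in excitatory neurons (0.4 to 0.94, 17 animals) and 0.63 in inhibitory neurons (0.23 to 0.81, 16 animals). With reads per cell it went both ways, with a median of -0.02 in excitatory (-0.29 to 0.27, below 0 in 9 of 17 animals) and -0.047 in inhibitory neurons (-0.34 to 0.29, below 0 in 9 of 16). The share thus moved with that of other short transcripts in every animal.

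**Figure D2:**
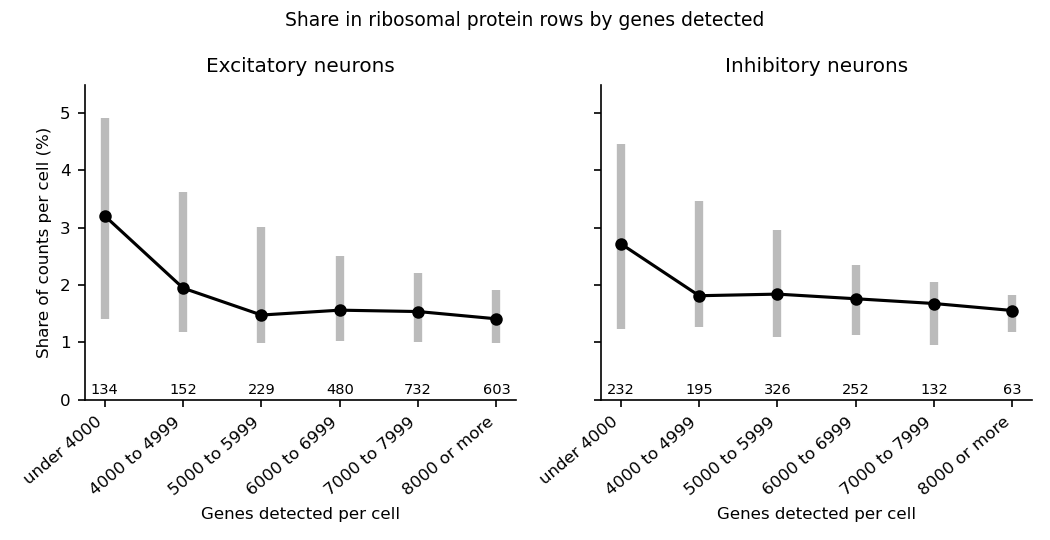
Median share of reads in ribosomal protein genes (percent) against genes detected per cell in bins of 1000 genes, for excitatory and inhibitory neurons, with the number of cells printed. Dots are medians over cells and grey bars span the lowest to the highest animal median; the share is highest under 4000 genes (3.206% and 2.721%).

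Across cells of an animal and class, a member's correlation with the summed level of the other members had a median of 0.37 over 84 members in 32 strata of animal and class, and it was above 0 for 82 of them. For the 10008 other genes read in 20% or more of cells the median was -0.0885, with 1748 above 0. Among members Rpl41, the shortest, had the highest value (0.661), followed by Rps27 (0.619), Rps7 (0.598) and Rpl37a (0.586). Genes outside the list reached the same values, and only 28 of the 84 highest genes were members. Picked after their values were seen, Ubb, a polyubiquitin gene, was at 0.634, Ppia, the cyclophilin A gene, at 0.628, Gm10076 at 0.625 and Chchd2 at 0.599, and the respiratory-chain genes Cox5b, Cox6b1 and Ndufa4 were at 0.572, 0.567 and 0.558.

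The levels of single members, in reads of an animal's summed cells scaled to a library of 1000000 (CPM), spanned more than 10-fold among the 77 ribosomal protein genes, from 54.51 for Rpl22 to 747.3 for Rpl3 (median 197.9). Rpl3, which lies by the peptidyl transferase centre, was at 747.3 ± 175.4 CPM (SD, n = 19), with 556.3 in Fear-Recall 4, a median of 691.7 and 1170 in Homecage 3. Rpl4, which lines the exit tunnel, was at 704.9 ± 134.6 CPM (537.3 to 1028). Rps3 of the messenger RNA entry site was at 516.9 ± 197.2 CPM, and Rps14 of the platform at 402.6 ± 220.1 CPM (230.4 to 1075). At least 1 read was found in 78.5% to 99.8% of cells for these genes, and 76 of the 77 were read in 90% or more.

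Per kilobase of coding sequence the order changed, since coding lengths run from 75 bases in Rpl41 to 1257 (median 456 over 81 members, against 1368 over 15019 genes of the table). Rpl41 was then highest at 5880 CPM per kilobase, followed by Rps29 at 927, Rps27 at 897.3, Rps14 at 888.6 and Rplp1 of the stalk at 862. At the lower end were Rpl3l at 0.08028, Rps27l at 121.6, Rpl7l1 at 128.9, Rpl22 at 141.96 and Rpl23a at 152.4. The median was 424.4 for the large subunit and 440.5 for the small subunit. Only the coding part was counted as length, so transcripts with long untranslated ends are overstated.

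Other members of known roles lay between these ends. The stalk proteins, which recruit elongation factors, had levels of 353.7 CPM for Rplp0, 294.8 for Rplp1 and 185.96 for Rplp2. Rps6, the protein phosphorylated after synaptic activity, was at 216.2 CPM, Rpl10 of the subunit joining step at 279.8, and Rpl5 and Rpl11, the pair that binds 5S RNA and can restrain Mdm2, at 152.4 and 169.5. Rpl38, known for its part in translating Hox transcripts, was at 122.7 CPM.

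Members differed in how much they varied between animals. The SD of log2(CPM + 1) over 19 animals had a median of 0.577 among the ribosomal protein genes. It was largest for Rpl35 (0.814), Rps25 (0.801), Rps27l (0.761), Rps28 (0.76) and Rpl36 (0.758), and smallest for Rpl3l (0.213, near 0 reads), Rpl4 (0.263), Rpl22 (0.293), Rpl3 (0.312) and Rpsa (0.312). Rpl35 ran from 65.33 CPM in Fear-Only 4 through a median of 107.8 to 517.2 in Context-Only 2, which is 7.92-fold. Context-Only 2 was the highest animal for 76 of the 85 members, while the lowest was Fear-Recall 4 for 35, Fear-Only 4 for 28 and Context-Only 5 for 11. Rpl3 and Rpl4, the most abundant members, were thus among those that varied least between animals.

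Among the paralogues, Rpl22l1 was the main product of its pair. Rpl22l1 was at 272.8 ± 125.4 CPM and Rpl22 at 54.51, and Rpl22l1 took 82.1% ± 4.473 of the reads of both (SD, n = 19; 70.72% to 89.06%). The excess held in every animal and in both classes, at 80.64% ± 4.185 in excitatory (n = 19) and 85.35% ± 4.698 in inhibitory neurons (n = 17). Rpl22 and Rpl22l1 encode closely related proteins that can take the same place in the large subunit.

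Rps27l took 11.82% ± 2.236 of the reads of Rps27 and Rps27l, and Rpl7l1 22.75% ± 4.569 of those of Rpl7 and Rpl7l1. Rpl3l, the muscle counterpart of Rpl3, was nearly absent at 0.09802 CPM, with a read in 0.5099% of cells. Rpl6l, Rps3a2 and Rps3a3, annotated as pseudogenes, were at 1.553, 3.514 and 1.279 CPM. They are near-identical copies of their parents, so whether these reads come from them or from Rpl6 and Rps3a1 is uncertain.

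Rps4l set the classes apart most sharply. It is a transcribed processed pseudogene related to Rps4x (chr6:148354656-148355598, plus strand, GENCODE vM21 on GRCm38), and it lies over Tmtc1, which is on the other strand. In excitatory neurons it was at 7.647 to 69.66 CPM (median 33.67, mean 31.36 ± 15.09, n = 17), and in inhibitory neurons of the same animals at 72.22 to 255.1 CPM (median 125.6, mean 130.6 ± 46.45). The groups did not overlap, and the inhibitory value was the higher in 17 of 17 animals. The log2 difference was 2.15 (SE 0.15, edgeR quasi-likelihood test, adjusted p = 3.1e-10). It stayed between 2.05 and 2.20 under the alternatives run.

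Of the reads of Rps4x and Rps4l together, Rps4l took 9.786% ± 4.162 in excitatory neurons (n = 19; 3.457% to 16.8%) and 30.89% ± 7.26 in inhibitory neurons (n = 17; 17.29% to 48.69%). By subclass the share was 34.19% ± 5.48 in Ndnf Reln neurogliaform interneuron-like cells (n = 3), 32.81% ± 11.53 in Vip interneuron-like cells (n = 15) and 32.68% ± 8.868 in Sst interneuron-like cells (n = 8). Those 3 lie within each other's spread. Near-projecting excitatory neuron-like cells had the lowest named share, 6.271% ± 4.744 (n = 11). The counting is not stated to use strand, so Rps4l and Tmtc1 reads may mix, and reads shared with Rps4x may be split. Tmtc1 itself fell in inhibitory neurons by 1.77 on the log2 scale (SE 0.30, edgeR adjusted p = 6.73e-05).

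Inhibitory neurons were compared with excitatory neurons of the same 17 animals (34 sums of 18 to 364 cells), to see whether the neuron classes differ in their ribosomal protein transcripts. Of 84 members tested, 42 rose and 2 fell. Over all 16110 genes tested, 18.6% rose and 22.4% fell, so that members rose more often and fell less often than genes at large; no test of the list was made. The median log2 difference was 0.157 for the members and -0.0949 for all genes, with 73 members above 0. Large and small subunit genes had medians of 0.156 and 0.164.

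The largest rises after Rps4l were in genes of both subunits. Rps27, a zinc-finger protein of the small subunit, had 89.29 to 397.8 CPM in excitatory (median 173.4) and 120.3 to 805.5 CPM in inhibitory neurons (median 247.3). The inhibitory value was the higher in 16 of 17 animals although the ranges overlap, and the log2 difference was 0.53 (SE 0.08, edgeR adjusted p = 2.3e-05). Rpl13a, a large-subunit protein also known outside the ribosome in the interferon response, had 54.7 to 148.1 CPM in excitatory (median 79.89) and 66.66 to 192.5 CPM in inhibitory neurons (median 117.97).

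Rpl13a was the higher in inhibitory neurons of all 17 animals, by 0.52 (SE 0.06, edgeR adjusted p = 5.36e-07). Rpl18, of the large subunit, had 102.6 to 372.1 CPM (median 136.5) and 136.3 to 511.6 CPM (median 238.2) in the same order, again the higher in inhibitory neurons of 17 of 17, by 0.52 (SE 0.07, adjusted p = 6.54e-06). Rpsa, a small-subunit protein that is also the laminin receptor precursor, was at 331 ± 79.79 CPM (232.8 to 502.9) in excitatory and 451.3 ± 110 CPM (315.6 to 737.8) in inhibitory neurons. Rpsa rose by 0.45 (SE 0.05, adjusted p = 2.13e-07, 17 of 17 animals). In each of these genes the ranges over animals overlap and the difference shows within animals.

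Of the other members of fixed roles, Rpl3 rose by 0.32 on the log2 scale (SE 0.04, edgeR adjusted p = 5.85e-06, 17 of 17 animals), and Rps9, Rpl7l1, Rpl13, Rpl22l1, Rps27l, Rplp0, Rpl10a, Rps3 and Rps6 rose by 0.41, 0.40, 0.39, 0.39, 0.37, 0.35, 0.33, 0.26 and 0.24. Rps27l lost its call in 9 of the 17 fits that left out an animal. Rps4x, the X-linked parent of Rps4l, rose by 0.16 (adjusted p = 0.012, 13 of 17 animals). The 2 members that fell were Rps12, by 0.27 (SE 0.08, adjusted p = 0.00942, higher in 3 of 17 animals), and Rpl29, by 0.25 (SE 0.09, adjusted p = 0.0246, higher in 4 of 17).

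Other members of fixed roles or at an end of the level range did not pass. The log2 differences were -0.05 for Rplp1, 0.01 for Rplp2, -0.09 for Rpl41, -0.09 for Rpl22, 0.02 for Rpl5, 0.02 for Rpl11, 0.02 for Rpl38, 0.04 for Rpl39, 0.13 for Rpl10, 0.16 for Rps28, 0.08 for Rps29 and -0.14 for Rps14. Within the stalk, then, Rplp0 passed and the values of Rplp1 and Rplp2 lay near 0. The difference between these genes was not tested.

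**Figure D3:**
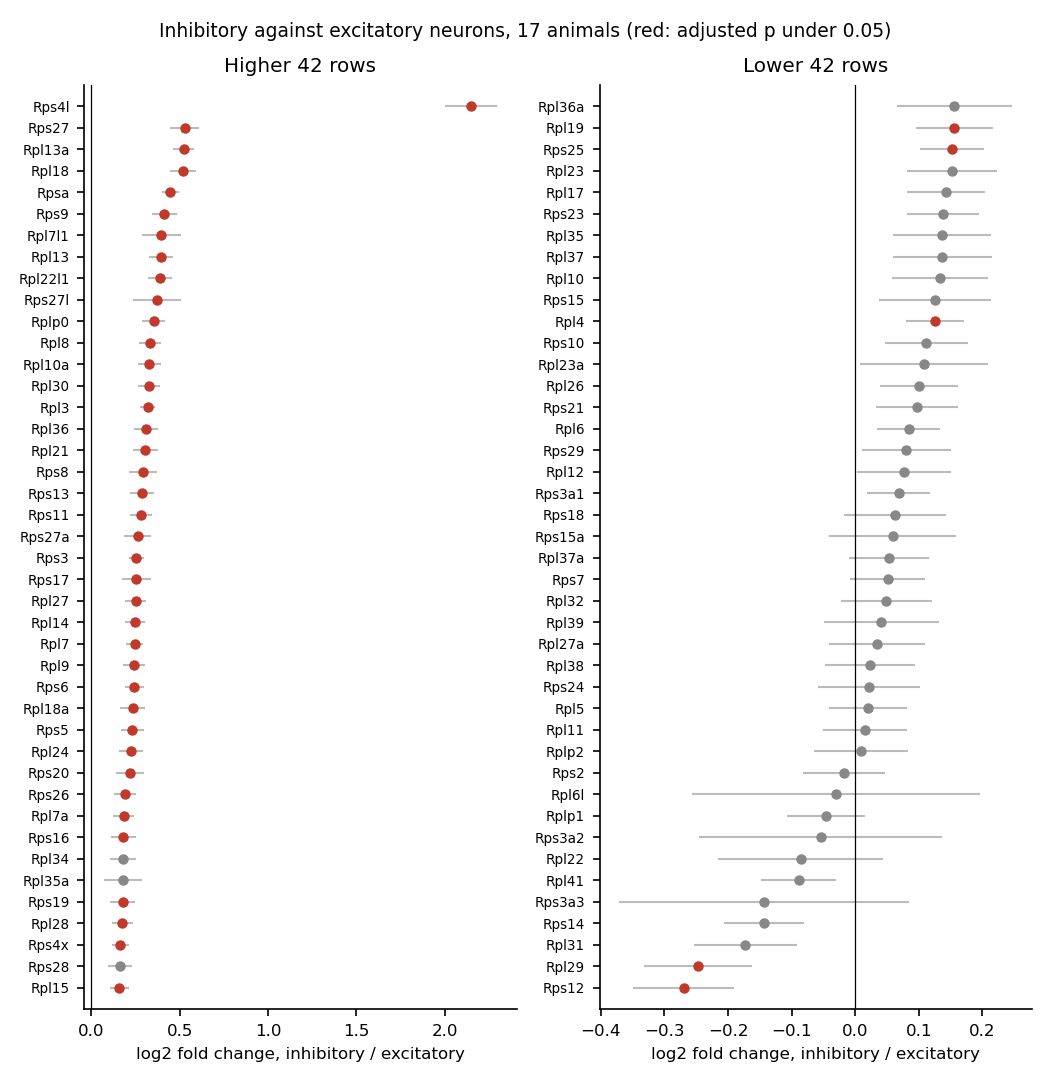
Log2 difference between inhibitory and excitatory neurons for each of the 84 members tested, with 1 SE to either side, ordered by value in a left and a right panel whose horizontal axes differ. Red marks an adjusted p under 0.05; Rps4l lies far to the right at 2.15, and Rps12 at -0.27 is the lowest.

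The animals did not move alike. The median log2 difference over the members was highest in Fear-Recall 2 (0.571, 82 of 84 members above 0), Homecage 2 (0.466, 82), Context-Only 2 (0.428, 82) and Fear-Only 5 (0.402, 80). It was lowest in Fear-Only 1 (-0.102, 31), Fear-Only 2 (-0.0633, 27), Fear-Recall 1 (-0.0363, 34), Homecage 3 (-0.0288, 38) and Context-Only 4 (-0.00833, 40). Of the 4 animals of set 2, 3 were thus at the top and Fear-Only 2 near the bottom. Without the animals of set 2, 23 members rose (15.5% of all genes) and 5 fell (19.7%), with a median of 0.0675.

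Inhibitory neurons also had fewer genes per cell, 5197 ± 959.7 (n = 17) against 6937 ± 988.4 in excitatory neurons (n = 19), so the tests were repeated without the low-gene clusters. Without the inhibitory one, 26 members rose (18.1% of all genes) and 6 fell (23.4%), with a median of 0.0553. Without both, 40 rose (18.1% of all genes) and 4 fell (23.1%), with a median of 0.137. On library totals in place of TMM scaling, 30 rose (16.5% of all genes) and 5 fell (24.5%). The part of genes detected in the rest of the difference was not tested. Summed astrocyte markers (8 genes) ran from 23.95 to 108.93 CPM in excitatory and 4.22 to 324.93 CPM in inhibitory sums, and those of microglia (7 genes) from 0 to 112.95 and 0.0128 to 15.2 CPM.

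Other genes of the translation machinery were described from fixed lists, beside the 18.6% of all genes that rose and the 22.4% that fell. Of 15 elongation genes, 9 (60%) rose and 3 (20%) fell (median 0.223), with Eef1a1, which brings transfer RNA to the ribosome, up by 0.33 and Tpt1, also a transcript with a pyrimidine tract, down by 0.68 on the log2 scale. Of 40 initiation genes, 8 (20%) rose and 1 (2.5%) fell (median 0.0491), with Eif1b up by 0.49, so the share that rose lay near that of all genes. Of 53 genes of ribosome biogenesis, 14 (26.4%) rose and 6 (11.3%) fell (median 0.0346), with Npm1 up by 0.56, while Polr1d fell by 0.84. Of 27 genes of mTORC1 and tract control, 7 (25.9%) rose and 3 (11.1%) fell (median -0.0191). Of 78 mitochondrial ribosomal protein genes, 21 (26.9%) rose and 5 (6.41%) fell (median 0.0867). Fau and Rps27rt, further ribosomal genes outside the symbol rule, rose by 0.35 and 0.46. Of 18 genes of dissociation and stress, 9 (50%) rose and 1 (5.56%) fell (median 0.226), with Fos up by 1.11, and their part in the members' difference was not tested.

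Subclasses were named from fixed markers, and each was compared with the mean of the other named subclasses of its class. In 63 excitatory sums of 18 animals and 26 inhibitory sums of 15 animals, 44 of the 84 members passed in at least 1 subclass, 20 in 2 or more and 4 in 3 or more. How many of all genes passed in as many subclasses was not counted, so these counts do not show whether members stand out. The clusters were formed without the members.

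Near-projecting excitatory neuron-like cells (11 animals) had 17 members higher and 2 lower, among 17560 genes of which 11.9% were higher and 14.6% lower. Rps24, a small-subunit protein mutated in Diamond-Blackfan anemia, was at 109.1 to 275.8 CPM there (median 162.8) and at 41.8 to 136.02 CPM in middle-layer excitatory neuron-like cells (median 77.96), with some overlap of the ranges. It rose by 0.62 in the near-projecting cells (SE 0.08, edgeR adjusted p = 9e-09). Rps13, of the small subunit, had means of 297.9 ± 116.8 CPM in near-projecting and 135.3 ± 34.71 CPM in middle-layer cells and rose by 0.62 (SE 0.08, adjusted p = 2.08e-08).

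Rps10, Rps27, Rps27a, which is made as a fusion with ubiquitin, Rpl22l1, Rpl26, Rpl24, Rpl36 and Rps9 rose by 0.50, 0.46, 0.44, 0.35, 0.33, 0.30, 0.28 and 0.25 in the near-projecting cells. The members that fell there were Rps4l, by 1.18 (SE 0.35, edgeR adjusted p = 0.00855; 0 to 47.59 CPM), and Rpl29, by 0.49 (SE 0.09, adjusted p = 3.87e-05; mean 167.7 ± 57.19 CPM). Of the 10 largest rises, 6 were small-subunit genes. The list's median was 0.0978 and that of all genes -0.0966.

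Middle-layer excitatory neuron-like cells (16 animals) went the other way, with 0 members higher and 20 lower, while 12.6% of all genes were higher and 3.88% lower. Rps13 fell by 0.49 (SE 0.08, edgeR adjusted p = 5.57e-06), Rps24 by 0.47 (SE 0.08, adjusted p = 6.02e-06), Rpl22l1 by 0.34, Rps27 by 0.31, Rps29 by 0.30 and Rps23 by 0.29. The median was -0.142 over the members and 0.157 over all genes. Each subclass comparison uses the other subclasses as its reference, so these values and those of the near-projecting cells are not independent. Without a filter on low counts 1 member was higher (10.7% of all genes) and 8 were lower (2.22%). By DESeq2 34 members were lower (5.51% of all genes).

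Layer 6 intratelencephalic excitatory neuron-like cells (11 animals) had 20 members higher and 0 lower, where 6.41% of all genes were higher and 3.9% lower. Rpl31, of the large subunit near the exit tunnel, was at 106.2 to 413.4 CPM (median 201.02) against 82.22 to 214.1 CPM (median 140.1) in layer 6 corticothalamic cells, and it rose by 0.41 (SE 0.08, edgeR adjusted p = 0.000188). Rps27l, Rps15a, Rpl29, Rpl36a and Rps14 rose by 0.52, 0.48, 0.40, 0.39 and 0.36. The median over the members was 0.189 and over all genes 0.0129. The count was 12 on library totals (5.87% of all genes) and 10 on per-cell means (6.33%). Median genes per cell were 6530 in near-projecting, 7719 in middle-layer and 7362 in layer 6 intratelencephalic cells. Their median shares in other short genes were 14.39%, 14.36% and 15.09%. The part of genes detected and of the short-gene share in the subclass differences was not tested.

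Layer 6 corticothalamic excitatory neuron-like cells (17 animals) had 3 members higher (10.2% of all genes) and 5 lower (4.93%). Rpl27a, Rps3 and Rpl3 rose by 0.31, 0.18 and 0.15, and Rps14, Rpl12, Rpl29, Rpl36 and Rpl19 fell by 0.35, 0.26, 0.26, 0.24 and 0.22. These counts lie near or below the shares of all genes. Upper-layer excitatory neuron-like cells (4 animals) had 0 members higher (3.68% of all genes) and 1 lower (2.49%), Rps24, by 0.41 (SE 0.13, edgeR adjusted p = 0.0383). The call of Rps24 was lost without a filter on low counts (adjusted p = 0.0539) and on library totals (adjusted p = 0.0855). In layer 5 excitatory neuron-like cells (4 animals) 0 members passed by edgeR, where 2.49% of all genes did, and 2 had an unadjusted p under 0.05, against 11% of all genes; the smallest adjusted p was 0.167, for Rps3a1, at -0.26.

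Rpl29 and Rps14, which passed in both layer 6 subclasses, are given by subclass. Rpl29 had means of 296.6 ± 118.6 CPM in layer 6 intratelencephalic cells (n = 11), 293.7 ± 84.28 in upper-layer cells (n = 4), 221.7 ± 60.41 in middle-layer cells (n = 16), 174.7 ± 42.73 in layer 6 corticothalamic cells (n = 17), 167.7 ± 57.19 in near-projecting cells (n = 11) and 166.3 ± 21.19 in layer 5 cells (n = 4). These means rest on partly different animals, and the SDs of the last 3 overlap, as do those of the first 2. In the edgeR fits, which compare within animals, Rpl29 was at -0.49 in near-projecting and -0.26 in layer 6 corticothalamic cells, and both passed. In layer 5 cells it was at -0.19 and did not pass. Each value is against the other subclasses, and no pair of subclasses was tested. For Rps14 the layer 6 intratelencephalic mean was 550.3 ± 255.04 CPM and the layer 6 corticothalamic mean 309.3 ± 81.36 CPM. Rps4l, Rpl29, Rps13, Rps24 and Rps27l had the largest SD of log2 level over excitatory subclasses (0.493, 0.392, 0.387, 0.386 and 0.379, against a median of 0.238). Rps3a2 (0.101), Rpl5 (0.102), Rpl8 (0.141), Rpl14 (0.145) and Rpsa (0.145) had the smallest.

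In inhibitory neurons 0 members passed by edgeR in any named subclass, with Ndnf Reln neurogliaform (3 animals), Sst (8) and Vip (15) interneuron-like cells against each other. Of the 15652 genes tested, 1.28%, 5.87% and 4.13% passed, and 8, 10 and 3 members had an unadjusted p under 0.05, against 11.3%, 19.1% and 15.8% of all genes. Rpl22l1 had the smallest adjusted p in the first 2, 0.118 at -0.60 and 0.11 at 0.34, and Rplp0 in Vip cells, 0.168 at 0.43. Rpl22l1 was at 184.9 ± 26.68 CPM in Ndnf Reln cells, 284.5 ± 72.99 in Vip cells and 329.8 ± 83.12 in Sst cells. DESeq2 called 1 member in Ndnf Reln cells, where it called 4.87% of all genes, and 2 in Sst cells, where it called 12.5%.

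**Figure D4:**
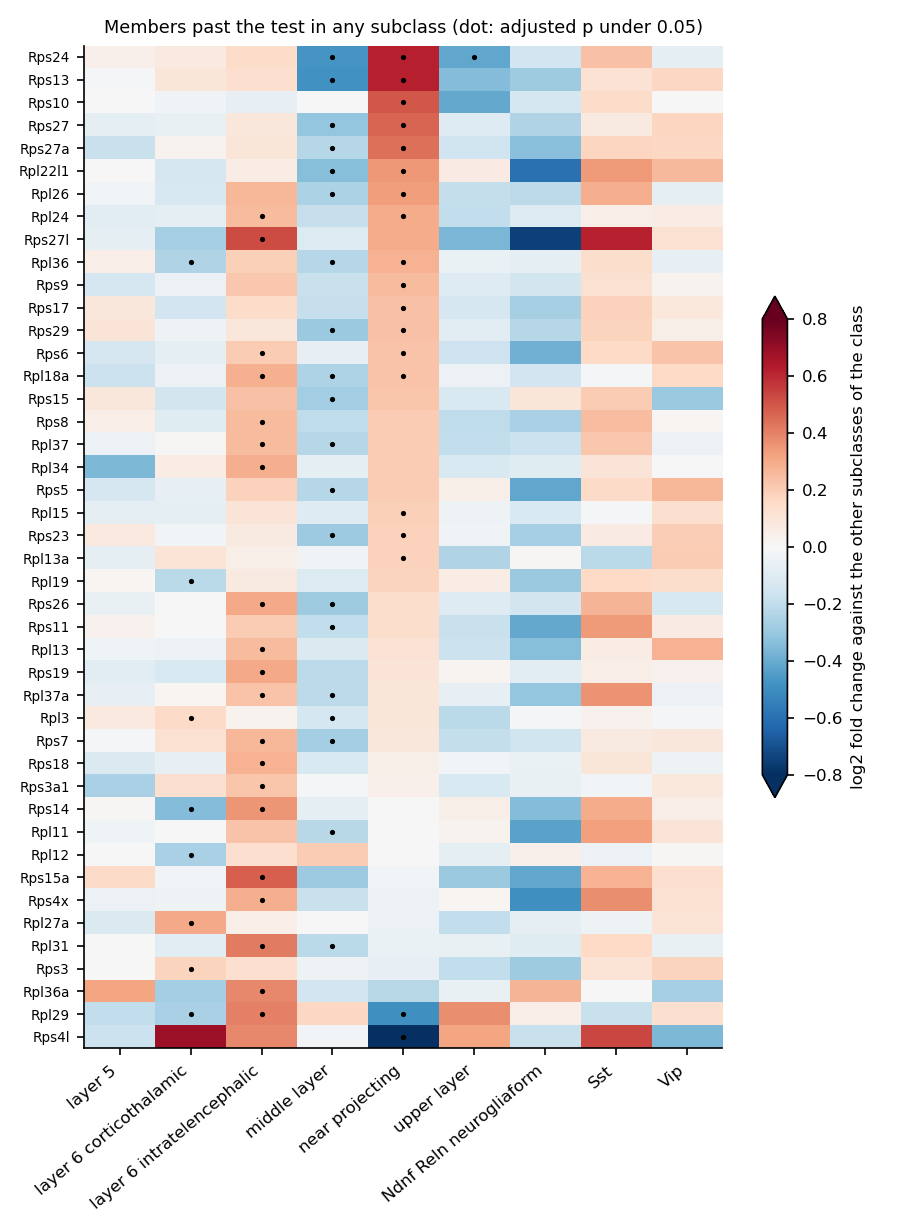
Log2 difference of each subclass from the mean of the other named subclasses of its class, for the 44 members that passed in at least 1 subclass; colours stop at 0.8 to either side and dots mark an adjusted p under 0.05. The near-projecting and layer 6 intratelencephalic columns hold most of the higher calls (17 and 20) and the middle-layer column 20 lower calls.

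The pos and neg gates were compared within 8 animals (16 sums of 55 to 329 cells), to see whether cells of the reporter gate differ in these transcripts. By edgeR 0 of 84 members passed, where 0.287% of 17752 genes did, and 26 members had an unadjusted p under 0.05, against 10.6% of all genes. The median log2 difference was 0.329 over the members, with 82 of 84 above 0, and 0.0212 over all genes. Rpl22l1 had the smallest adjusted p, 0.378, at 0.47 (SE 0.17). Its pos and neg levels were 686 and 479.5 CPM in Context-Only 2, 270.4 and 214.2 in Context-Only 3, 378.4 and 407.5 in Fear-Only 2, and 240.9 and 179.8 in Fear-Only 3. They were 382.4 and 225.6 CPM in Fear-Recall 2, 224.4 and 197.99 in Fear-Recall 3 and 776.3 and 254.1 in Homecage 2. In Context-Only 4 the pos level was 166.4 CPM, just above the neg level. The pos value was the higher in 7 animals and the lower in Fear-Only 2, and the ranges overlap.

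The gate difference varied between animals. The median log2 difference over members was 1.22 in Homecage 2, 0.582 in Fear-Recall 2, 0.536 in Context-Only 2, 0.359 in Context-Only 3, 0.28 in Fear-Only 3, 0.125 in Fear-Recall 3, -0.0233 in Context-Only 4 and -0.419 in Fear-Only 2. In Fear-Only 2 only 3 of 84 members were higher in the pos gate, and in Homecage 2, 83 were. Without Homecage 2 the fitted median over members fell from 0.329 to 0.214, and without the animals of set 2 it was 0.205. Pos cells had fewer genes detected than neg cells in 7 of the 8 animals, Context-Only 4 among them, with 3902 against 7352 in Homecage 2. In Fear-Only 2 they had more, 6582 against 6035.

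Cells of the low-gene clusters were unevenly spread over the gates, and their part in the gate difference was not tested. In set 2 they made up 65.88% of pos and 8.824% of neg cells in Homecage 2, 60% and 26.47% in Context-Only 2, 16.41% and 4.688% in Fear-Recall 2, and 13.04% and 32.26% in Fear-Only 2. In set 3, where the members' medians were above 0, they were fewer in the pos gate. They were 1.37% and 3.448% in Context-Only 3, 0.692% and 1.087% in Fear-Only 3 and 0.3077% and 2.128% in Fear-Recall 3. In Context-Only 4 they were 0.8929% and 7.273%. Without the low-gene clusters the median log2 difference over members was 0.255, against 0.329 with them. In Fear-Recall 2 the pos cells came from a pair of plates, and plate p10 (82 cells) had a median share of 2.804% against 1.428% in the larger plate p1, with 50% and 5.263% of cells in low-gene clusters and 84 of 85 members higher in p10. The median over cells of that animal was nearly equal in both gates, at 1.537% and 1.533%. Mitochondrial ribosomal protein genes had a median gate difference of 0.293 (70 of 78 above 0) and elongation genes one of -0.022 (7 of 15 above 0), with 0 of either list past the test.

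**Figure D5:**
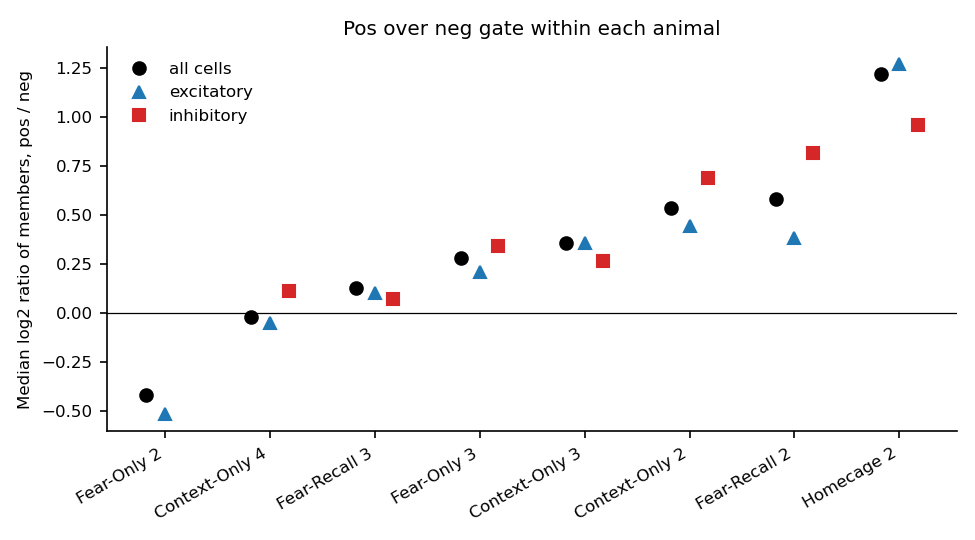
Median log2 difference between pos and neg cells over the 84 members for each animal, in all cells, excitatory neurons and inhibitory neurons; the line marks 0. Homecage 2 is highest for all cells (1.22) and Fear-Only 2 lowest (-0.419), and Fear-Only 2 has no inhibitory value.

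Within excitatory neurons of these animals 0 members passed by edgeR, where 0.0298% of 16783 genes did, and 3 members had an unadjusted p under 0.05, against 7.13% of all genes. The smallest adjusted p was 0.617, for Rpl29 at 0.40 (SE 0.15), and the median over members was 0.273. Within inhibitory neurons (7 animals) 0 members and 0% of 14302 genes passed by edgeR, and 56 members had an unadjusted p under 0.05, against 9.87% of all genes. The median over members was 0.477 and over all genes 0.118. Rps18, of the small subunit head, had the smallest adjusted p, 0.347 at 0.77 (SE 0.16).

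Rps18 in inhibitory pos and neg cells was at 1088 and 491 CPM in Context-Only 2, 316.1 and 224.5 in Context-Only 3, 203.4 and 126.6 in Context-Only 4 and 254.7 and 189.3 in Fear-Only 3. It was at 524.3 and 215.5 CPM in Fear-Recall 2, 208.2 and 174.8 in Fear-Recall 3 and 842.1 and 390.5 in Homecage 2. It was the higher in pos cells of 7 of 7 animals, with overlapping ranges. DESeq2 called 6 members in this comparison, Rpl10, Rpl22l1, Rpl34, Rps18, Rps19 and Rps6, and 2.61% of all genes. Rpl22 went against the rest, at -0.32 and higher in 2 of 7 animals, with an edgeR adjusted p of 0.646. Whether the gate difference differs between the classes was not tested.

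The conditions were compared in the pos gate of sets 2 to 4 (8 sums, 20381 genes) and, against Homecage, over all gates (19 sums, 19698 genes). By edgeR 0 members and 0% of all genes passed in any of the 6 comparisons. Those in the pos gate share samples with each other, and those over all gates share the Homecage samples. At an unadjusted p under 0.05, 1.88%, 3.38%, 2.52%, 8.86%, 6.75% and 4.89% of all genes passed and 0, 0, 0, 10, 1 and 0 of 85 members, in the order in which the comparisons are given next. DESeq2 called 0 members as well in each. Sums over all gates mix the gates in different parts.

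In the pos gate the median over members was -0.302 for Fear-Recall against Fear-Only (0% of genes passed, 85 of 85 members below 0), -0.615 for Fear-Recall against Context-Only (0% passed, 84 below 0) and -0.293 for Fear-Only against Context-Only (0% passed, 79 below 0). The per-cell share was 1.423% ± 0.2558 in Fear-Recall (n = 3; 1.13% to 1.602%), 1.898% ± 0.2829 in Fear-Only (n = 2; 1.698% and 2.098%) and 2.175% ± 1.186 in Context-Only (n = 3; 1.229%, 1.791% and 3.505%). Context-Only holds both the highest animal and one of the lowest. Over the 8 sums the median member level against its mean was 1.24 in Context-Only 2 and lay between -0.86 (Fear-Recall 4) and 0.291 (Fear-Only 2) in the rest. Fear-Only, with 1 pos cell in set 4, had no sum there, so its comparisons are unbalanced by set. Within sets, Fear-Recall and Fear-Only were at 0.287 and 0.291 in set 2 and at -0.202 and -0.112 in set 3.

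Without Context-Only 2 the medians against Context-Only turned to 0.0751 (Fear-Recall) and 0.371 (Fear-Only). Rpsa had the smallest p of Fear-Recall against Context-Only, at -0.56 (SE 0.28, edgeR adjusted p = 0.97), and Rplp0 was at -0.64 (SE 0.32). Rps27 was at 0.316 without Context-Only 2. Rps4l had the smallest p of Fear-Recall against Fear-Only, at -0.76 (SE 0.45, edgeR adjusted p = 1).

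Over all gates the medians were -0.587 for Fear-Recall against Homecage (0% of genes passed, 84 of 85 below 0), -0.477 for Fear-Only against Homecage (0% passed, 84 below 0) and -0.172 for Context-Only against Homecage (0% passed, 78 below 0). Shares per cell were 1.393% ± 0.2274 in Fear-Recall (n = 5; 1.13% to 1.586%), 1.524% ± 0.4662 in Fear-Only (n = 5; 1.114% to 2.275%), 1.769% ± 0.8047 in Context-Only (n = 5; 1.182% to 3.148%) and 1.841% ± 0.5187 in Homecage (n = 4; 1.386% to 2.298%). All 4 ranges overlap. Within the 4 sets that hold Homecage cells, the share of Fear-Recall lay below that of Homecage in 4 of 4, with a difference of -0.489 ± 0.28 percentage points (SD; means 1.353% and 1.841%), and that of Fear-Only in 4 of 4, with -0.268 ± 0.27 (means 1.574% and 1.841%). Context-Only, with the animals of set 5 averaged, lay below Homecage in 3 of 4 sets and above it in set 2 (mean difference 0.024 ± 0.611). In set 5 this was nearly a tie, with Context-Only 5 at 1.182% and 5b at 1.588% on either side of Homecage 5 at 1.386%. Fear-Only 2 and Homecage 2 were nearly equal, at 2.275% and 2.283%. In set 4 all Fear-Recall cells were pos and all 17 Homecage cells neg. Fear-Recall and Context-Only had 1.535% and 3.148% in set 2, 1.586% and 1.714% in set 3, and 1.13% and 1.215% in set 4. In set 5 they had 1.16% against 1.182% and 1.588%. Fear-Recall thus lay below Context-Only in 4 of 4 sets, by far the most in set 2, with -0.513 ± 0.736 (means 1.353% and 1.865%). Exact two-sided sign-flip permutation tests of these 4 differences gave p = 0.125, 0.125, 1 and 0.125 (0.167, 0.167, 1 and 0.167 after Benjamini-Hochberg adjustment), and 0.125 is the smallest value that 4 sets allow.

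Rpl18 had the smallest p against Homecage. It was at 132.3, 191.3, 152.4, 112.4 and 135.7 CPM in Fear-Recall 1 to 5, and at 314.1, 276.9, 235.2 and 211.7 CPM in Homecage 2 to 5. The Homecage 4 value rests on 17 cells, all of the neg gate. In this fit, which had no block for set, the log2 difference was -0.84 (SE 0.29, unadjusted p = 0.00975, edgeR adjusted p = 0.558). Rpsa, Rpl34 and Rps4x followed at -0.51, -0.99 and -0.74 with the same adjusted p. In Fear-Only against Homecage Rpl18 was at -0.63 (adjusted p = 0.727). Genes detected and the short-gene share moved with set and animal as given above, and their part in the condition values was not tested.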

How the data were processed

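The authors deposited whole-number read counts per gene and cell, prepared by Smart-seq2 per the labels' protocols. Bowtie 0.12.2 and the builds mm8 and mm10 are listed, without roles, per the submitters' processing notes. Which tool counted reads per gene was not given in the sources used here. Members and lists were chosen with earlier results of these data known. Cells were grouped by the labels' condition and mouse, and by the gate in the titles. Every cell passed with at least 100000 reads.

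With the members left out, counts were scaled to each cell's total, logged and clustered in scanpy 1.11.5 (2000 variable genes, 30 components, 15 neighbours, leidenalg 0.10.2 at resolution 1.0, Python 3.11.15, numpy 2.4.6, scipy 1.17.1, pandas 2.3.3, matplotlib 3.10.9). Clusters were named by fixed markers. Cells were sorted singly, and no doublet caller was run. Raw counts were summed per animal and group of 10 or more cells (8604380 to 463123041 counts per sum of the class, gate and condition comparisons, 5716331 to 115957751 in subclasses). A sum rests on each cell's depth. Sums were tested over all genes with edgeR 4.0.16 in R 4.3.3 (TMM, filterByExpr at 10 and 15, quasi-likelihood test, Benjamini-Hochberg at 0.05), with the animal as a block except between conditions. CPM carries TMM scaling, and log2 levels add a pseudocount of 1. The tests were also run on simulated counts with known changes, drawn without shared differences between animals or sets. That run does not check how the tests handle such differences.

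Named genes were, in each comparison, the members past the test (at most the 10 largest rises and 10 largest falls), and with fewer than 6 the 4 of smallest p per direction. Members of fixed roles, the 5 at each end of level per length and of SD, and the 3 genes of smallest p of each other list were added. The 24 members with a small nucleolar RNA gene inside them, and the 35 that overlap another gene on the same strand, were counted as the table gives them.

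Set numbers were checked for pairing. Over all gates, deviations of animals with the same number correlated at 0.113 to 0.49 (28 pairs, median 0.2655). In the pos gate they correlated at 0.082 to 0.538 (7 pairs, median 0.289). Animals with different numbers were not correlated for comparison, so whether the numbers pair the samples stays undecided. The labels do not say what the numbers mark, and the main fits between conditions had no block for set. Alternatives were DESeq2 1.42.0, limma 3.58.1 on per-cell means, other scalings and filters, left-out animals, blocks and low-gene clusters. The removal of both low-gene clusters and of set 2, the subclass alternatives, and the differences of share within sets were chosen after seeing the data. Left out were the reporter row and cells without a gate in the gate comparison.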

Additional observations from a re-analysis of the deposited data

Results flagged for a closer look

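In groups of 4 to 8 animals, a sample was singled out where its gap to the nearest other animal exceeded Dixon's 95% critical value. Chance singles out about 1 in 20 groups, and 27 groups were looked at. The animals below stood apart in groups of 5. Context-Only 2 had a median share of reads in ribosomal protein genes of 3.148%, with the next Context-Only animal at 1.714%. Its Rps27 level was 544.9 CPM (next 228.8) and its Rpl22l1 level 628.7 CPM (next 263.5). Rpl22l1 was also apart at 337.7 CPM in Fear-Recall 2 (next 216.9) and at 392.8 CPM in Fear-Only 2 (next 223.8). Rpl3 was at 1033 CPM in Fear-Only 2 (next 690). All of these animals belong to set 2.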

How the results depend on the processing

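Of the counts of members past the test and the shares, recomputed under each alternative, 7 counts fell and 7 rose by over 1.5 times, and the other counts and shares kept their size. The 44 members of the class comparison became 28 without set 2 and 35 to 45 when an animal was left out. Within inhibitory neurons the gate comparison gave 6 by DESeq2 and 0 in every fit without an animal. By subclass, layer 6 intratelencephalic cells gave 12 members on library totals and 10 on per-cell means, against 20. Middle-layer cells gave 12 with members left out of library sizes, 34 by DESeq2 and 9 without a filter, against 20, and near-projecting cells 32 on per-cell means, against 19. Upper-layer cells gave 0 without a filter. Ndnf Reln cells gave 1 by DESeq2, Sst cells 2 by DESeq2 and 1 on per-cell means, and Vip cells 1 on per-cell means. Subclasses were not refitted without single animals. Where the share of all genes under a setting is not given above, a count does not show how members moved against genes at large.

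Medians over members changed sign as follows, none of them past a test. Fear-Recall against Context-Only in the pos gate was -0.957 to 0.0751 when an animal was left out, the last without Context-Only 2. Fear-Only against Context-Only was -0.642 to 0.371, the last without Context-Only 2, and 0.142 without set 2. Context-Only against Homecage was -0.598 to 0.0413, the last without Homecage 2. Layer 5 cells turned to 0.0145 on library totals, 0.015 on per-cell means and 0.0119 by DESeq2, and Vip cells to -0.00873 on per-cell means. Rps27 turned in Fear-Recall against Fear-Only to 0.009 (-0.791 to 0.009 over left-out animals), in Fear-Recall against Context-Only to 0.316 (-1.056 to 0.316) and in Fear-Only against Context-Only to 0.628 (-0.68 to 0.628), 0.157 on per-cell means, 0.22 without low-gene clusters and 0.33 without set 2. Rplp0 turned in Context-Only against Homecage to -0.046 (-0.046 to 0.223) and to -0.045 without set 2. The cause was not tested.

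Without the replicate block of the animal the class comparison called 6 members and the gate comparison 0, and the shares of all genes in these fits are not given here. With the set number as a replicate block the 6 condition comparisons called 0. In the pos gate same-set correlations were 0.082 to 0.538 (7 pairs, median 0.289). There that block turned the median of Fear-Recall against Fear-Only from -0.302 to 0.0104, and Rps27 to 0.076. Fits that left a condition with 1 animal took its spread from the others.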

Other observations

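Homecage animal 1 has 1 cell, which held 1.981% of its reads in ribosomal protein genes and 7881 detected genes. Among the 6 plates of Fear-Recall 1, which carry no gate, plate T2 (30 cells) had the highest median share, 1.891%, and plate T6 (52 cells) the lowest, 1.338%. The median log2 difference between them over the members was 0.481, with 79 of 85 higher in T2, at 7522 and 7159 genes per cell. The Pvalb interneuron-like cluster (49 cells of 15 animals) reached 10 cells in no animal and was not compared; its median share was 1.482%. The unnamed inhibitory cluster 8 (led by Htr3a and Pnoc) had 1.724% and took 31.57% ± 8.595 of the reads of Rps4x and Rps4l in Rps4l (n = 9), near the values of the named inhibitory subclasses.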
